A study of Homo sapiens with 11 samples.

Results

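The genes described here make, sense, store and clear cholesterol and fatty acids in HCC78, a lung adenocarcinoma cell line that carries an SLC34A2-ROS1 fusion and is itself heterozygous for the U2AF1 S34F mutation. They were chosen by symbol as 37 genes of 7 roles: the mevalonate steps, the steps from squalene to cholesterol, sterol sensing, fatty acid synthesis, sterol transfer and phosphatidate, the oxysterol and LXR branch, and the lipid droplet. The choice was made with earlier results of these data known, and G0S2 and CYP27A1 were named with it. Calls of these genes beside the share of all genes are therefore descriptive and give no independent support. All 37 were found among the 57773 genes of the expression table, and 35 of them had a mean of at least 1 FPKM (fragments per kilobase of transcript, scaled to the size of the library) and were among the 15179 genes tested. ABCA1 and ABCG1, the sterol exporters, did not reach that mean and lay at or below 0.85 FPKM and 0.67 FPKM in every library.

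RNA-seq of 9 libraries of total RNA was compared. Every library came from HCC78 cells, so all groups shared the endogenous S34F allele and the ROS1 fusion. The parental dox- group (2 libraries) was labelled as the parental line without doxycycline. The WT line had been transduced with a lentiviral, tetracycline-inducible vector for FLAG- and HA-tagged wild-type U2AF1, and was sequenced without doxycycline (WT dox-, 2 libraries) and with it (WT dox+, 2 libraries). The S34F line carried the same vector with the S34F form, and was sequenced without doxycycline (S34F dox-, 1 library) and with it (S34F dox+, 2 libraries). According to the study's methods the transduced lines were stable subclones, so a difference between the lines cannot be told apart from a difference between subclones, and with no parental library on doxycycline the drug cannot be told apart from the induced U2AF1. The labels do not say that replicates were separate cultures, and the p-values below therefore measure the spread between these libraries, which may be technical.

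U2AF1 is the small subunit of the factor that recognises the 3′ splice site, and S34F changes which 3′ splice sites it prefers. Cholesterol is built from acetyl-CoA through mevalonate, isoprenoids and squalene. When sterols in the endoplasmic reticulum fall, the transcription factor SREBP-2 (encoded by SREBF2) is released and raises most genes of that pathway together, while SREBP-1 (SREBF1) acts more on fatty acid synthesis. INSIG1 and INSIG2 hold both factors back. Oxysterols, such as the 27-hydroxycholesterol made by the mitochondrial enzyme CYP27A1, bind the nuclear receptors LXRα and LXRβ, which raise sterol export. Fatty acids and sterols in excess are stored as esters in lipid droplets, where G0S2 inhibits the triglyceride lipase ATGL (encoded by PNPLA2) and PLIN2 coats the droplet.

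Total U2AF1 was 102.76 to 115.06 FPKM in the 5 libraries without doxycycline, 277.6 and 299.05 FPKM in WT dox+, and 164.44 and 222.76 FPKM in S34F dox+. Each library is also labelled with a percentage of S34F beside the wild-type form, which was not measured again here. Without doxycycline this label ran from 28% (S34F dox-) to 33% (WT dox-). Both WT dox+ libraries lay below that range, at 12% and 14%. Both S34F dox+ libraries lay above it, at 62% and 65%. A comparison of these 2 groups therefore sets a raised S34F share against a lowered one. The depth of each library was estimated from low genes, as the most common ratio of parental dox- replicate 1 FPKM to its own. It ran from 0.595 to 2.46 times that of parental dox- replicate 1, and was not read from counts. From 13661 to 20896 genes reached 1 FPKM, the most in S34F dox+ replicate 2. Of 11 epithelial and lung adenocarcinoma markers 10 had a mean of at least 1 FPKM, with a summed level of 8531 to 11572 FPKM per library. None of 3 hepatocyte and none of 5 adipocyte markers reached that mean (summed level 0 to 2.77 and 0.35 to 3.09 FPKM). For 5 macrophage markers the summed level was 16.2 to 39.9 FPKM, and for the 4 fibroblast and endothelial markers found in the table it was 3.49 to 11.1 FPKM.

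RefSeq promoter windows (GRCh38.p14, 300 bases that end 50 bases past an annotated start) were matched by symbol for 33 of the 37 genes, in 45 windows. The 5 windows below are shown because G0S2 and CYP27A1 were the members called by adjusted p in a comparison, because FDPS and SCD were the members that lay furthest below the parental line in WT dox-, and because LSS carried the splicing event described last. Capitals mark CCAAT or its reverse complement ATTGG, the letters bound by the factor NF-Y, which acts beside SREBP at many sterol promoters.
G0S2: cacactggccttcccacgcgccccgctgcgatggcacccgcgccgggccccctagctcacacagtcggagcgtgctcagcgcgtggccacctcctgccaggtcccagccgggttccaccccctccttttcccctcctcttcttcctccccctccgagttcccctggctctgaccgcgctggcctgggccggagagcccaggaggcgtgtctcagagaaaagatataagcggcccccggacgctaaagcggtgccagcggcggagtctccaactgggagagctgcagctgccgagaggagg
CYP27A1: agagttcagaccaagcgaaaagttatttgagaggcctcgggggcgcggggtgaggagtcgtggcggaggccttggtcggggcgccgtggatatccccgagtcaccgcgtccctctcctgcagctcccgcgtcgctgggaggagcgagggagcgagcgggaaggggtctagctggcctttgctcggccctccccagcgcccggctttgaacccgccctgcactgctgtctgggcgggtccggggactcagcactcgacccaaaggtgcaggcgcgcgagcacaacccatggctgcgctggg
FDPS: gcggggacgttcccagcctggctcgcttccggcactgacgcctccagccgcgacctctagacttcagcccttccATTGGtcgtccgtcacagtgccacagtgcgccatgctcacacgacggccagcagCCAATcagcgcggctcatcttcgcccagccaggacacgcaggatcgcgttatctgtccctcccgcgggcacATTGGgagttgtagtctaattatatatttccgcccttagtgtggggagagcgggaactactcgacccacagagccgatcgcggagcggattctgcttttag
SCD: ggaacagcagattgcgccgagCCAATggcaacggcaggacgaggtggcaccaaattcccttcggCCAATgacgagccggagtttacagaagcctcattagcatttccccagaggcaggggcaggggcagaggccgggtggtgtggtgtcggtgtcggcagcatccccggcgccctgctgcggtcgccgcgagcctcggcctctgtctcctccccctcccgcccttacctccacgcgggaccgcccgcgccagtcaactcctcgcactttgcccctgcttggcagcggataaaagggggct
LSS: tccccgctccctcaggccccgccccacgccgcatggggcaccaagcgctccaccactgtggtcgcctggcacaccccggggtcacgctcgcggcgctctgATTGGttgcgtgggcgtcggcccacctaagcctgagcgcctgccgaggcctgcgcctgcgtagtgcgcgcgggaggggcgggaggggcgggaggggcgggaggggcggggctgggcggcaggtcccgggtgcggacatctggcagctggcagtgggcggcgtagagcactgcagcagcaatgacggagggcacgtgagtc
The windows lie at chr1:209675162-209675461 on the plus strand for G0S2, chr2:218781897-218782196 on the plus strand for CYP27A1, chr1:155308616-155308915 on the plus strand for FDPS, chr10:100346983-100347282 on the plus strand for SCD, and chr21:46228725-46229024 on the minus strand for LSS. On either strand, CCAAT was found in 23 of the 45 windows (51.1%), in 12 of 17 windows of the sterol synthesis members (70.6%) and in 34.6% of all 35116 RefSeq windows. The G0S2 and CYP27A1 windows held none, and FDPS held 3. TCACNCCAC, a form of the sterol regulatory element, was found in 2 of the 45 windows (SREBF2 and PNPLA2), in 0 of the 17 sterol synthesis windows and in 1.13% of all windows. CACGTG, the E-box, was found in 4 of the 45 windows (8.89%), in 1 of the 17 sterol synthesis windows (5.88%) and in 7.26% of all. These are matches of letters in a short window and not sites shown to be used.

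G0S2 (ENSG00000123689.5) was lower with doxycycline in both transduced lines. In bulk libraries such as these, fewer cells with an mRNA and less mRNA per cell cannot be told apart. Its level was 111.34 and 105.32 FPKM in WT dox- and 45.74 and 41.09 FPKM in WT dox+. In the S34F line it was 157.49 FPKM without doxycycline and 64.84 and 64.01 FPKM with it. The parental libraries stood between, at 74.93 and 82.35 FPKM, so that the 3 uninduced transduced libraries were all above and the 4 induced libraries all below the parental line. Within the WT line G0S2 fell by 1.30 on the log2(FPKM + 1) scale (SE 0.11, limma with Benjamini-Hochberg adjustment over all genes, adjusted p = 0.0465), and it was the only member called among the 35, where 0.0132% of all genes (2 of 15179) were called in that comparison. Since G0S2 was chosen with earlier results known, that share is given for scale only. The adjusted p was between 0.00742 and 0.231 over 14 other settings and passed in 3 of them, while the log2 fold change stayed between -1.38 and -1.22.

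A contrast added after the values were seen, the mean doxycycline response over both lines, gave a fall of G0S2 of 1.29 on the log2 scale (SE 0.09, limma, adjusted p = 0.00183), against 3.88% of all genes called in either direction. This call passed in all 16 other settings run, with an adjusted p of at most 0.0341. None of those settings left out S34F dox-, which is a single library. The S34F line part of the mean response therefore rests on 1 uninduced library, the one with the highest G0S2 value. The response to doxycycline did not differ detectably between the lines: S34F minus WT was 0.02 on the log2 scale, with a 95% interval from -0.37 to 0.42. G0S2 was also the only member at least 1.5-fold lower with no overlap when all 4 dox+ libraries were set against all 3 dox- libraries of the transduced lines, a rule that 0.889% of all genes met in that direction. The rule asks for 1.5-fold between the group means of log2(FPKM + 1) and for no overlap between single libraries, which may themselves differ by less.

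Between the lines G0S2 was higher with S34F in each state, without passing the test. S34F dox+ against WT dox+ gave a log2 fold change of 0.56 (SE 0.11, limma adjusted p = 0.361), and the 2 groups did not overlap. With both states in the fit the difference was 0.55 (SE 0.09, limma adjusted p = 0.14). Against the parental line G0S2 was 0.46 higher in WT dox- (SE 0.11, limma adjusted p = 0.179) and 0.99 higher in the single S34F dox- library (SE 0.13, limma adjusted p = 0.0698). The last value passed the threshold in 3 settings that changed only which genes were tested (adjusted p = 0.0275 to 0.046).

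**Figure D1:**
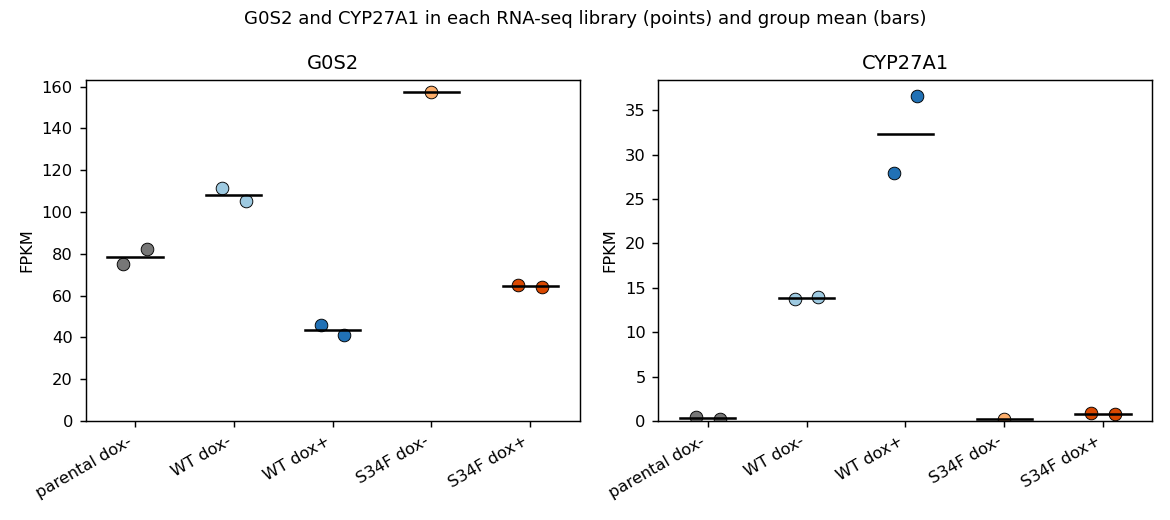
FPKM of G0S2 (left) and CYP27A1 (right) in each library, grouped by line and doxycycline; points are libraries and black bars are group means (S34F dox- is 1 library). G0S2 lies at 41.09 to 64.84 FPKM in the 4 dox+ libraries and at 105.32 to 157.49 FPKM in the 3 dox- libraries of the transduced lines, and CYP27A1 exceeds 1 FPKM only in the 4 WT line libraries.

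Neither of the other lipid droplet members was called in any comparison. PNPLA2, the lipase that G0S2 inhibits, ranged from 17.27 FPKM to 24.25 FPKM over the 9 libraries and was highest in the parental pair (20.99 and 24.25 FPKM) and in S34F dox+ replicate 2 (20.89 FPKM). The lowest G0S2 value, 41.09 FPKM, was above the highest PNPLA2 value, so per length there was more G0S2 than PNPLA2 mRNA in every library. PLIN2, the droplet coat protein, ranged from 16.01 to 21.06 FPKM. For doxycycline in the WT line the log2 fold changes were -0.02 for PNPLA2 and 0.22 for PLIN2.

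CYP27A1 (ENSG00000135929.4), the sterol 27-hydroxylase, was high in the WT line alone. Its level was 0.45 and 0.25 FPKM in the parental line, 0.21 FPKM in S34F dox-, and 0.86 and 0.74 FPKM in S34F dox+. In the WT line it was 13.75 and 13.97 FPKM without doxycycline and 27.95 and 36.6 FPKM with it. The groups of the WT line did not overlap with each other or with any other group. WT dox- was above the parental line by 3.46 on the log2(FPKM + 1) scale (SE 0.21, limma adjusted p = 0.00168), and this was the only member called there, where 0.0988% of all genes were called. Without WT dox- replicate 1 the limma adjusted p was 0.0535, and with only these 2 groups in the fit it was 0.0955.

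With the lines compared and doxycycline adjusted, CYP27A1 was lower in the S34F line with a log2 fold change of -3.91 (SE 0.17, limma adjusted p = 0.000119), and it was the 1 member of 35 called, against 0.119% of all genes. It was also the 1 member that met the 1.5-fold rule without overlap when all S34F line libraries were set against all WT line libraries, where 0.435% of all genes met it in that direction. Since CYP27A1 in the S34F line lay near the parental level (S34F dox- against parental, -0.15 with a 95% interval from -0.76 to 0.45), it was the WT line that stood apart. In S34F dox+ against WT dox+ CYP27A1 was the only member called, among 0.0527% of all genes, and the only member 1.5-fold lower without overlap, where 2.37% of all genes were. On the TPM scale HMGCS1 and ELOVL6 met that rule too, as did 3.19% of all genes. The log2 fold change there was -4.20 (SE 0.21, limma adjusted p = 0.000606), and the adjusted p was 0.0501 without WT dox+ replicate 2 and 0.133 with only these groups in the fit.

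Within the WT line CYP27A1 was higher with doxycycline by 1.15 on the log2 scale (SE 0.21, limma adjusted p = 0.126), with no overlap between the pairs. Between 0.962 and 1.34 on the log2 scale was found in every one of the 14 other settings, and none passed. For the mean response over both lines the value was 0.86 (SE 0.17, limma adjusted p = 0.042), a call that held in 5 of 16 settings. In that contrast 2.79% of all genes were called higher, and the S34F line part of it rests on CYP27A1 values below 1 FPKM. The 1.5-fold rule without overlap named CYP27A1 as the 1 member higher with doxycycline in the WT line and G0S2 as the 1 member lower, where 9.68% and 1.87% of all genes met it.

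No other member of the oxysterol branch was called. NR1H2, which encodes LXRβ, ranged from 14.23 to 20.56 FPKM and was highest in the 2 parental libraries (20.52 and 20.56 FPKM). MYLIP, an LXR target that marks lipoprotein receptors for breakdown, ranged from 2.38 to 4.23 FPKM. ABCA1 ran from 0.08 FPKM to 0.85 FPKM, with the lowest and the highest value in the 2 WT dox- libraries, and ABCG1 from 0 to 0.67 FPKM. Of the 7 other oxysterol and LXR genes tested, NR1H3, which encodes LXRα, was the one called for the mean doxycycline response over both lines (log2 fold change 0.60, SE 0.13, limma adjusted p = 0.0489). NR1H3 was 12.79 and 16.01 FPKM in the parental line, 8.89 and 7.54 FPKM in WT dox-, 12.5 and 11.38 FPKM in WT dox+, 6.67 FPKM in S34F dox-, and 11.71 and 11.33 FPKM in S34F dox+.

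Among the sterol synthesis genes 1 library stood apart. WT dox- replicate 1 was below WT dox- replicate 2 for 15 of 15 sterol synthesis members, with a median log2 difference of -0.68, while the median over all 15179 genes was -0.01 (50.6% lower). Over the 35 members 33 were lower (G0S2 and SREBF1 were not), and 14 were lower by at least 1.5-fold (40.0%), as were 7.84% of all genes. In the other 3 pairs of replicates the median difference over the 35 members lay between 0.02 and 0.11. WT dox- replicate 1 held the lowest of the 9 values for 13 of the 15 sterol synthesis members (86.7%) and for 15.4% of all genes, the exceptions being PMVK and TM7SF2.

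HMGCS1, which makes the substrate of the pathway's controlled step, was 58.53 and 111.5 FPKM in the 2 WT dox- libraries, and 72.46 to 123.53 FPKM in the other 7. FDPS, which makes farnesyl diphosphate, was 201.36 and 343.8 FPKM in WT dox- and 272.33 to 428.33 FPKM elsewhere. DHCR7, which catalyses the last step to cholesterol, was 32.86 and 67.82 FPKM in WT dox- and 47.18 to 61.82 FPKM elsewhere. Replicate 1 was thus below, and replicate 2 within or above, the range of the other libraries. The same held outside the sterol pathway for SCD, the Δ9 desaturase, at 83.47 and 187.69 FPKM in WT dox- and 127.07 to 228.2 FPKM elsewhere. FADS2, the Δ6 desaturase, was 24.65 and 64.21 FPKM in WT dox- and 39.49 to 65.97 FPKM elsewhere. INSIG1, itself a target of SREBP, was 23.35 and 48.07 FPKM in WT dox- and 38.62 to 62.39 FPKM elsewhere.

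Of 16 other sterol genes tested, 14 were lower in WT dox- replicate 1 than in replicate 2 (median log2 difference -0.35), and of 14 other fatty acid genes 12 were (median -0.25). So were 10 of 12 other lipid droplet and triglyceride genes (median -0.19) and 5 of 7 other oxysterol and LXR genes (median -0.30). The 2 libraries were alike in U2AF1 (111.5 and 109.92 FPKM), in genes at 1 FPKM or more (14490 and 14485) and in estimated depth (1.0 and 1.23 times that of parental dox- replicate 1). They were not alike in the epithelial and lung adenocarcinoma markers, of which 9 of the 10 tested were lower in replicate 1 (median log2 difference -0.31), with -0.65 for KRT19 and -0.53 for KRT8. The part of that difference in the gap of the sterol genes was not tested.

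**Figure D2:**
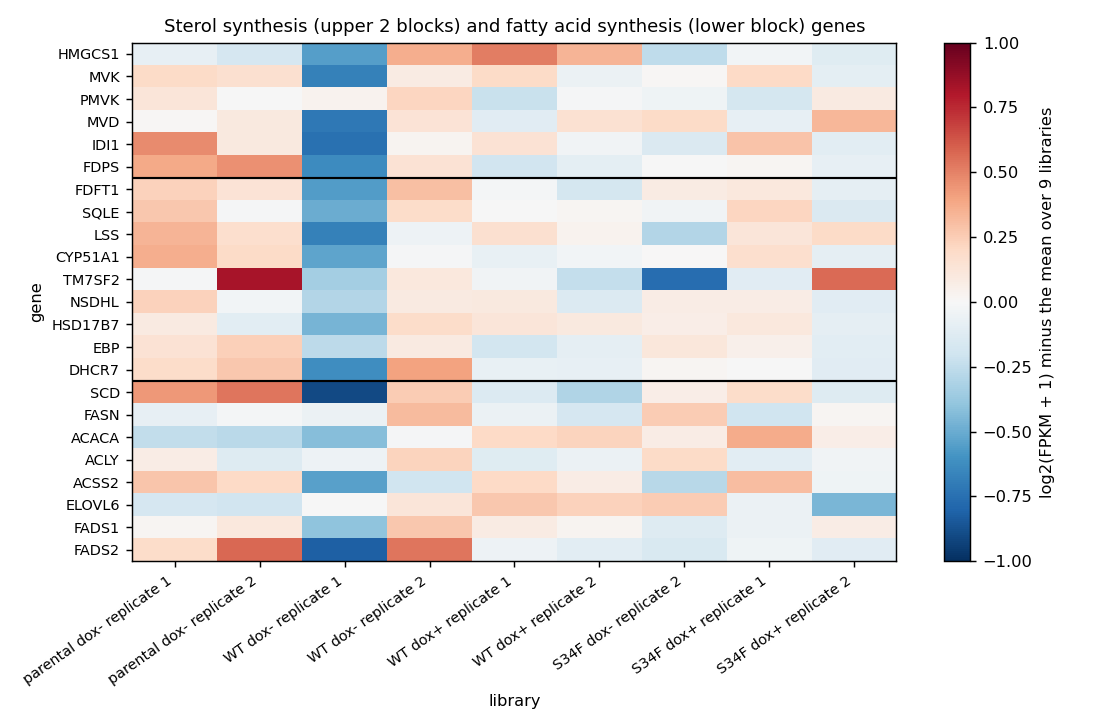
log2(FPKM + 1) of 23 members in each library minus the mean of that gene over the 9 libraries; rows are genes (mevalonate steps, then squalene to cholesterol, then fatty acid synthesis, divided by black lines), columns are libraries, and blue is below and red above the gene's mean. The column of WT dox- replicate 1 is blue for most genes, and it is the lowest library for 13 of the 15 sterol synthesis genes.

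The comparisons that used WT dox- changed with that library. For doxycycline in the WT line the median log2 fold change of the 15 sterol synthesis members was 0.16 with 12 higher, but -0.12 with 3 higher when WT dox- replicate 1 was left out and 0.50 with 14 higher when replicate 2 was left out (medians of all genes 0.05, 0.03 and 0.07). For WT dox- against the parental line the median was -0.34 with 2 of 15 higher, -0.01 with 7 higher without replicate 1, and -0.75 with 0 higher without replicate 2. The difference between the 2 doxycycline responses had a median of -0.12 with 2 of 15 higher, 0.21 with 15 higher without replicate 1, and -0.51 with 2 higher without replicate 2. Between the lines the median was 0.09 with 12 of 15 higher, -0.07 with 3 higher without replicate 1, and 0.24 with 12 higher without replicate 2. For the mean doxycycline response it was 0.12 with 10 of 15 higher, -0.07 with 6 higher without replicate 1, and 0.26 with 13 higher without replicate 2. Without replicate 2 HMGCS1 was called higher for that mean response (log2 fold change 0.58, SE 0.09, limma adjusted p = 0.0499). No sterol synthesis member was called in the other 4 of these comparisons, with all libraries or without either one, and for the difference between responses no member of the 35 was called, among 0.0264% of all genes (1 member, ELOVL6, had an unadjusted p under 0.05).

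5 members were at least 1.5-fold lower in WT dox- than in the parental line without overlap, namely IDI1, FDPS, LSS, SCD and ACSS2 (5 of 35; 5.07% of all genes), and CYP27A1 was the 1 member higher (3.69% of all genes). None of the 5 met the rule when WT dox- replicate 1 was left out, where 5.62% of all genes were lower. When replicate 2 was left out 14 members were lower, as were 9.53% of all genes. Either way 1 library stands for WT dox-, which makes the absence of overlap easier to meet. FDPS was 405.54 and 428.33 FPKM in the parental line and at most 343.8 FPKM in the 7 transduced libraries. SCD was 212.2 and 228.2 FPKM in the parental line and at most 187.69 FPKM elsewhere. Besides these, CYP51A1, EBP, NR1H2 and PNPLA2 were higher in FPKM in both parental libraries than in each transduced library. This makes 6 of 35 members, where 4.66% of all genes behaved so. The FPKM sum over all genes was also higher in both parental libraries than in every transduced library except S34F dox+ replicate 1. The count of 6 therefore depends on the FPKM scale, and whether it holds on the TPM scale was not tested. SCD was the 1 member of the 6 that was also 1.5-fold lower in the transduced libraries without overlap (1.15% of all genes). It did not meet that rule without WT dox- replicate 1, without parental dox- replicate 2 or on the TPM scale.

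In the single S34F dox- library, which does not rest on WT dox-, the sterol synthesis members had a median log2 fold change of -0.16 against the parental line with 2 of 15 higher, where the median of all genes was -0.01. On the TPM scale 7 of 15 were higher, the median was -0.03 and that of all genes was 0.10. No member was called in this comparison by limma, among 0.112% of all genes (unadjusted p under 0.05 for 2 members higher, G0S2 and ELOVL6, and 1 lower, TM7SF2).

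The comparison that the study was designed for, S34F dox+ against WT dox+, moved few of these genes. The median log2 fold change was 0.02 over the 35 members, 0.06 over the 15 sterol synthesis members and 0.00 over the 8 fatty acid synthesis members, beside 0.03 over all genes tested. Of the sterol synthesis members 11 of 15 were above 0, but on the TPM scale 1 of 15 was, and the median of all genes moved there to -0.07. Apart from CYP27A1 the fold changes lay between -0.51 (ELOVL6) and 0.56 (G0S2). 4 members were higher without overlap (SCD, FDPS, INSIG1 and G0S2; 20.5% of all genes) and 3 were lower (HMGCS1, ELOVL6 and CYP27A1; 15.3% of all genes).

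HMGCS1 was 84.65 and 79.19 FPKM in S34F dox+ and 123.53 and 109.33 FPKM in WT dox+ (log2 fold change -0.50, 95% interval -1.10 to 0.10, limma adjusted p = 0.767). The S34F dox+ libraries were near the parental ones (81.4 and 76.84 FPKM) and near S34F dox- (72.46 FPKM). WT dox+ was near WT dox- replicate 2 (111.5 FPKM) but not near WT dox- replicate 1, which held the lowest HMGCS1 value of the 9 libraries. ELOVL6, which elongates palmitate, was 35.76 and 26.92 FPKM in S34F dox+ and 45.2 and 43.94 FPKM in WT dox+ (log2 fold change -0.51, 95% interval -0.85 to -0.17, limma adjusted p = 0.555). FASN, the fatty acid synthase, was 149.41 and 174.58 FPKM against 165.25 and 152.79 FPKM, and the groups overlapped. ACACA, which makes malonyl-CoA, was 73.81 and 59.37 FPKM against 65.38 and 66.52 FPKM, again with overlap. SREBF2 was 41.79 and 38.67 FPKM against 38.07 and 41.35 FPKM, and SREBF1 was 29.54 and 35.42 FPKM against 31.73 and 24.69 FPKM.

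**Figure D3:**
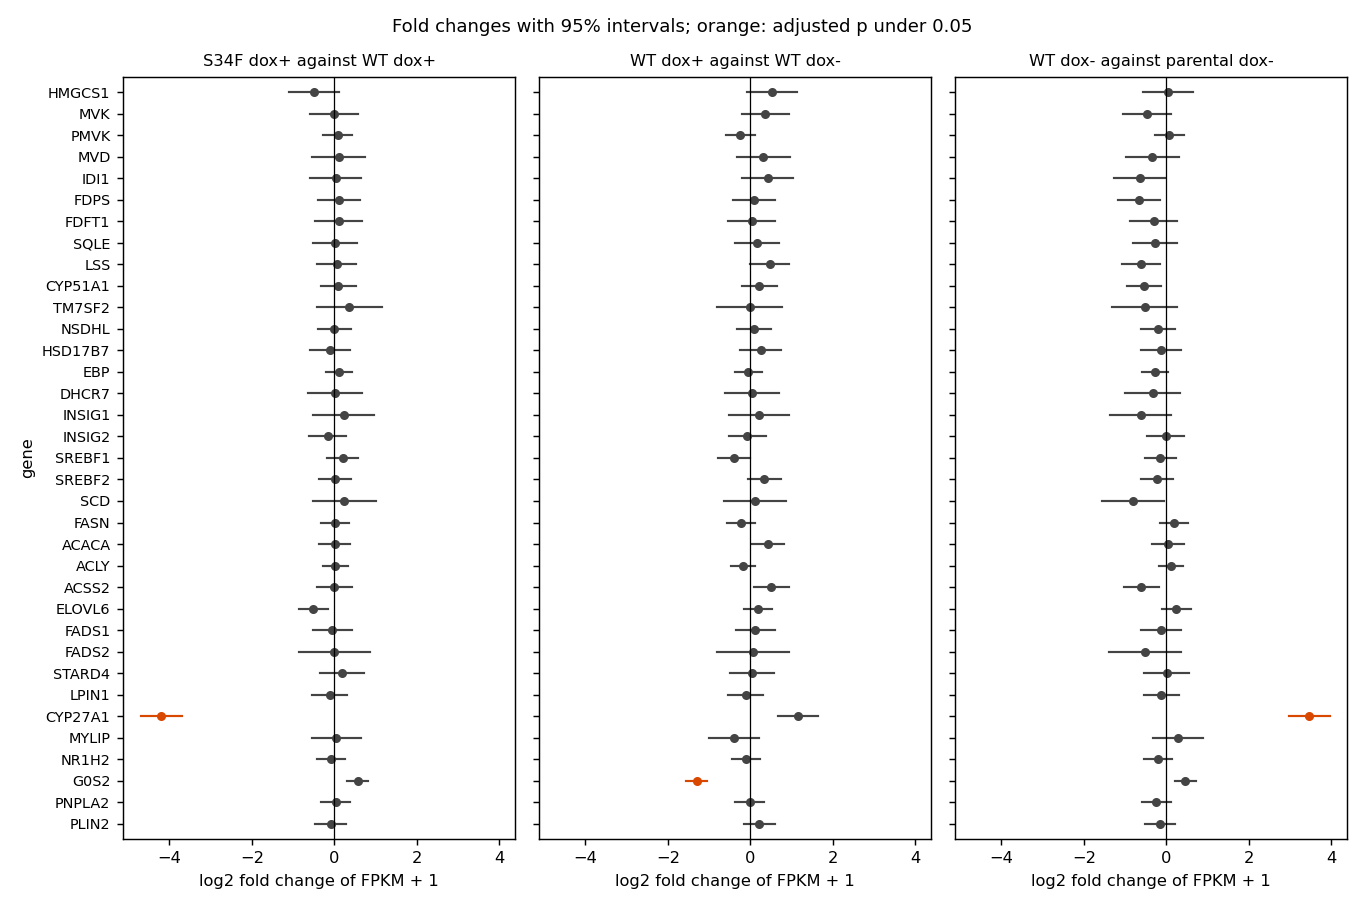
log2 fold change of FPKM + 1 (points) with 95% limma intervals (lines) for the 35 members tested in 3 comparisons on a common axis; orange marks an adjusted p under 0.05. CYP27A1 is called in the left and right panels (-4.20 and 3.46) and G0S2 in the middle panel (-1.30), and 32, 30 and 27 of the 35 intervals include 0 from left to right.

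When all dox+ libraries of both lines were set against all dox- libraries, 3 of 35 members were higher without overlap, a smaller share than the 15.2% of all genes. For each of the 3 the lowest value among the transduced libraries was that of WT dox- replicate 1, the library set apart above. ACSS2, which makes acetyl-CoA from acetate, was 7.41 and 9.67 FPKM in WT dox- and 9.12 FPKM in S34F dox-, against 13.05 and 11.89 FPKM in WT dox+ and 14.13 and 10.88 FPKM in S34F dox+. LSS, which closes the sterol ring, was 14.49, 22.94 and 19.2 FPKM without doxycycline and 24.42 to 27.26 FPKM with it. SREBF2 was 26.04, 37.16 and 31.11 FPKM without and 38.07 to 41.79 FPKM with it. ACSS2 and LSS in the parental line, at 13.02 to 13.84 FPKM and 26.81 to 30.37 FPKM, were within or above the range of the dox+ libraries. None of the 3 was called for the mean response (log2 fold changes 0.46, 0.46 and 0.35, limma adjusted p = 0.111, 0.138 and 0.158).

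The 49 other pathway genes tested gave few differences by the 1.5-fold rule. None met it in S34F dox+ against WT dox+ or between the lines, SCD5 was higher in WT dox+ than in WT dox-, and NR1H3 and BSCL2 were among 3 that were lower in WT dox- than in the parental line. SCD5, a second Δ9 desaturase, was 15.01 and 25.41 FPKM in WT dox- and 30.65 and 29.35 FPKM in WT dox+. BSCL2, which encodes the droplet protein seipin, was 7.41 and 13.69 FPKM in WT dox- and 19.31 and 15.55 FPKM in the parental line. For both, WT dox- replicate 1 held the lowest value of the 9 libraries. No other pathway gene was called by limma in the 6 main comparisons.

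Splicing of the same genes was compared between S34F dox+ and WT dox+ from the deposited MISO tables, which give 1 percent-spliced-in value (PSI, written as a fraction, the share of transcripts with the form listed first) per event and condition. There is no replicate error on these values. The tables are headed as mutant against wild type with numbered columns, so the first was read as S34F and the second as WT. Their doxycycline state was taken from the study, which describes cells that overexpress either form. Reads for CYP27A1 were 8 in the first and 662 in the second condition, the order of its FPKM in S34F dox+ and WT dox+. Of 92662 unique events 261 carried the symbol of 35 of the members, with none for G0S2 and SCD. Of these, 119 were skipped exons, 52 concerned the 5′ and 38 the 3′ splice site, 31 were NAGNAG events (paired 3′ splice sites) and 21 were retained introns.

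With at least 10 reads in each condition, 50 of 245 events of the members differed by a PSI of at least 0.10, 24 higher and 26 lower in S34F dox+. Over all 79960 events with those reads 31.1% did, so the share of the members (9.8% and 10.6%) was below the 16.1% higher and 14.9% lower over all events. The 50 events fell in 18 members, with the highest counts in TM7SF2 (12 of its 25 events) and MVK (8 of its 15). Events of a gene can overlap and are not independent. Many separate events of a gene carried the same or nearly the same read counts, such as 61 and 44 for all 4 events of ABCA1. The read counts given here may therefore stand for more than the event, and do not show how many reads support its PSI.

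Among 135 events of the members with 100 or more reads on both sides and a PSI of at least 0.90 or at most 0.10 in 1 condition, a rule added after the values were seen, a single one differed by 0.20 or more, where 2.23% of all events did. It was a skipped exon of LSS, lanosterol synthase, at chr21:47608735-47611795 (hg19, minus strand). Its PSI was 0.71 in S34F dox+ (687 reads) and 0.97 in WT dox+ (912 reads). A second LSS event that shares the same end, an alternative 5′ splice site at chr21:47608735-47610990, had a PSI of 0.73 in S34F dox+ and 0.61 in WT dox+. The remaining 6 LSS events differed by between -0.06 and 0.05. The summed LSS level did not move with the exon: it was 25.89 and 27.26 FPKM in S34F dox+ and 26.7 and 24.42 FPKM in WT dox+ (log2 fold change 0.06, 95% interval -0.42 to 0.53).

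TM7SF2, a sterol reductase of the later pathway, had the largest PSI difference among the events of the members with at least 10 reads. A NAGNAG event at chr11:64882304-64882388 was at 0.59 in S34F dox+ and 0.18 in WT dox+ (100 and 158 reads). A retained intron at chr11:64882553-64882948 was at 0.50 and 0.79 (67 and 107 reads). TM7SF2 itself was low, at 3.08 to 11.3 FPKM, with 5.88 and 11.3 FPKM in the parental pair, and the read counts listed for its events were low.

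In the mevalonate kinase gene MVK a skipped exon at chr12:110024604-110029046 was at 0.33 in S34F dox+ and 0.71 in WT dox+ (198 and 284 reads). In LPIN1, a phosphatidate phosphatase, an alternative 5′ splice site at chr2:11944697-11945196 was at 0.56 and 0.86 (693 and 1094 reads). In MYLIP an alternative 5′ splice site at chr6:16130978-16141856 was at 0.83 and 0.49 (86 and 110 reads), and in ACSS2 one at chr20:33501920-33502126 was at 0.38 and 0.63 (163 and 259 reads). The gene level of these 4 differed between S34F dox+ and WT dox+ by log2 fold changes between -0.12 and 0.05. In SREBF2 a NAGNAG event at chr22:42296126-42296337 was at 0.45 and 0.65 with 1635 and 2065 reads.

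**Figure D4:**
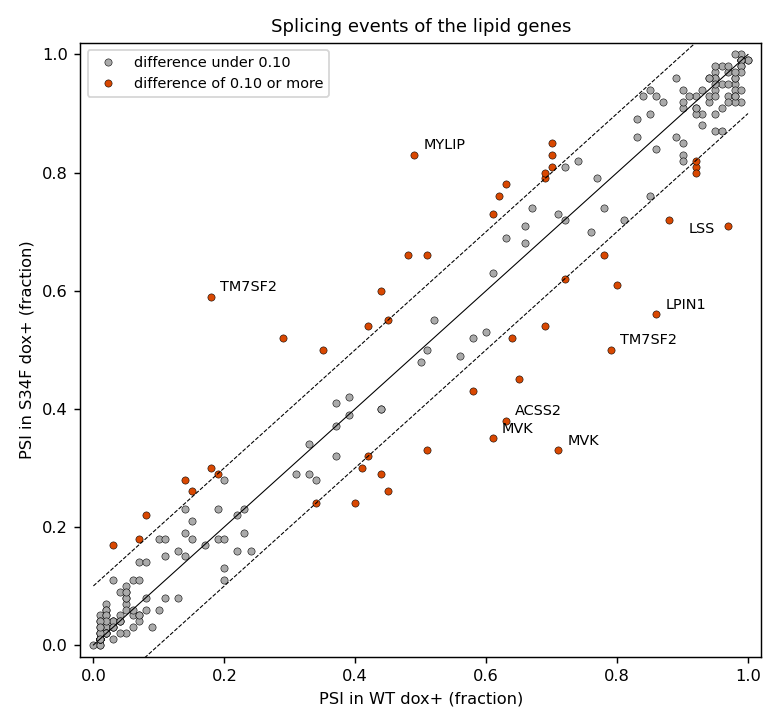
PSI of each member event in WT dox+ (x axis, fraction) and S34F dox+ (y axis, fraction), for events on the strand of the gene with at least 10 reads in each condition; the solid line marks equal PSI and the dashed lines a difference of 0.10, and genes with an event that differs by 0.25 or more are named. The LSS event lies at 0.97 and 0.71, away from the crowd of events near 1, and the other named events start from a PSI between 0.18 and 0.86 in WT dox+.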

How the data were processed

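RNA-seq of 9 HCC78-derived libraries was analysed, and the 2 iCLIP samples were not analysed here. The authors trimmed the reads, aligned them with STAR 2.3.0 and estimated gene-level FPKM with RSEM 1.2.29 (versions from the submitters' processing notes), and deposited FPKM and TPM for each library. The deposited TPM equalled the FPKM of a library divided by 1 constant. For splicing the authors deposited MISO tables (hg19) with PSI, a fraction from 0 to 1, and read counts for each condition, with the number of libraries behind each value not given in the sources used here. Their PSI differences and Bayes factors were not used.

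Genes whose mean over the libraries reached 1 FPKM were tested on log2(FPKM + 1) with limma 3.58.1 (trend, two-sided, R 4.3.3) in 1 fit of 5 groups, with Benjamini-Hochberg adjustment over all of them and a threshold of 0.05. A fold change on this scale understates that of low genes. S34F dox- is 1 library and borrows its spread from the other groups. A second rule without a test asked for 1.5-fold and no overlap between libraries. Genes described in full were G0S2, CYP27A1 and each member called in a comparison or meeting the second rule between lines. All others were named after their values were seen. The members and lists were chosen with earlier results of these data known. FPKM carries no total count, so precision rests on the replicates, and replicate numbers did not pair the libraries (correlations of deviations -0.076 to 0.037).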

Additional observations from a re-analysis of the deposited data

How the results depend on the processing

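In the comparisons of G0S2 and CYP27A1 whose direction was followed, no fold change reversed under the alternatives run. Not followed were the difference between responses, G0S2 in WT dox- against parental and CYP27A1 in S34F dox- against parental. For the difference between responses the G0S2 value, 0.024 with all libraries, was -0.015 without WT dox- replicate 1. The median of the sterol synthesis members reversed without WT dox- replicate 1 in WT dox+ against WT dox-, between the lines, for the mean doxycycline response and for the difference between responses, and on the TPM scale in S34F dox+ against WT dox+. Of counts of members called by limma, the 1 member in S34F dox+ against WT dox+ and the 1 in WT dox- against the parental line became 0 when only the groups compared were fitted, a fit with 2 residual degrees of freedom, and 0 to 1 when 1 library was left out. The 1 member in WT dox+ against WT dox- (G0S2) became 0 with a pseudocount of 5, no minimum FPKM, TPM, median-ratio scaling, quantile normalization, only the groups compared, the replicate block and each left-out library. The replicate block, for numbers that did not pair the libraries, left 1 of 2 members called for the mean doxycycline response, as did no minimum, a minimum mean of 5 FPKM, quantile normalization, only the groups compared and leaving out single libraries (1 to 2), and changed no other count. S34F dox- against the parental line went from 0 to 1 member (G0S2) with no minimum, a minimum of 5 FPKM or protein-coding genes only.

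By the 1.5-fold rule, S34F dox+ against WT dox+ gave 3 members on TPM (CYP27A1, HMGCS1 and ELOVL6) and 1 to 3 leaving out 1 library. WT dox- against the parental line gave 1 member at 2-fold, 2 on TPM and 1 to 15 leaving out 1 library, instead of 6. At 15 members, 7.02% of all genes met the rule higher and 9.53% lower. WT dox+ against WT dox- gave 2 to 13, all transduced libraries against the parental line 0 at 2-fold or on TPM and 0 to 3, and dox+ against dox- of both lines 1 to 3. At 13 members, 13.8% of all genes met the rule higher and 4.41% lower. Both of these highest counts were without WT dox- replicate 2. Of 50 splicing events 11 remained at a PSI step of 0.20, 31 at 100 reads and 1 under the added rule from a PSI near 0 or 1. Alternatives on single left-out libraries for the fold rule, the mean doxycycline response, the pooled comparisons and the strand of events were chosen after seeing the data. TPM moved the median log2 fold change of all genes from 0.03 to -0.07 in S34F dox+ against WT dox+ and from -0.01 to 0.10 in S34F dox- against the parental line. FPKM gives no counts, so no limit of detection by depth can be stated.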

Other observations

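ELOVL6 was higher with doxycycline in the WT line and lower with it in the S34F line, without passing the test of the difference. It was 37.26 and 40.76 FPKM in WT dox- and 45.2 and 43.94 FPKM in WT dox+, but 44.71 FPKM in S34F dox- and 35.76 and 26.92 FPKM in S34F dox+. The difference between the responses was -0.70 on the log2 scale (SE 0.23, unadjusted p = 0.0177 and adjusted p = 1 by limma), with 1 uninduced S34F library. TM7SF2 had the opposite sign, with 1.01 (SE 0.54, limma adjusted p = 1), and was 5.88 and 11.3 FPKM in the 2 parental libraries.

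Among events with too few reads to be counted were 2 with large PSI differences. A skipped exon of CYP27A1 was at 0.44 and 0.87, with 8 reads in S34F dox+ and 662 in WT dox+. A retained intron listed under both FADS1 and FADS2, on the strand of FADS1, was at 0.18 in S34F dox+ and 0.64 in WT dox+ with 7 and 12 reads. In all, 7 of the 261 events lay on the strand opposite to the gene whose symbol they carried, among them a skipped exon listed under FDPS at 0.40 and 0.61, and leaving these out kept 48 of the 50 events.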
